A study of Mus musculus with 6 samples.

Results

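The genes described here are 10 regulators and adhesion molecules of mesenchymal cells, 8 transcription factor genes (Snai1, Snai2, Twist1, Twist2, Zeb1, Zeb2, Prrx1 and Prrx2) and 2 cadherin genes (Cdh2 and Cdh11). They were chosen by name, as every probe set that the platform annotation assigns to 1 gene alone, that gene being one of the 10. This gave 25 of 35067 such probe sets and 10 of 18194 measured genes. All members have probe sets on the Affymetrix array design MOE430A (15 probe sets), and 5 of them also on MOE430B (10 probe sets). The cells were 10T1/2, a line of mouse embryo fibroblasts able to form muscle, fat, cartilage or bone when induced. They grew in DMEM with 10% FBS and were harvested at 80% confluency, with no genetic change or treatment named in the labels. Samples 1, 4 and 5 form 1 group, each hybridised to 1 array of each design, 6 arrays in all. The labels call the 3 samples the best ones for the array experiment and leave unsaid whether each came from its own culture, which means that their spread may be technical only. The design holds no second condition, and no p-value is given.

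Cells of mesenchyme move and divide as single cells, without the tight sheets that epithelial cells form. Snail factors (Snai1, Snai2) and Zeb factors (Zeb1, Zeb2) are zinc finger repressors that bind E-box sequences and silence E-cadherin and other epithelial genes. Twist1 and Twist2 are basic helix-loop-helix proteins that pair with E-proteins, and Prrx1 and Prrx2 are paired-related homeobox factors of limb and craniofacial mesenchyme. Cdh2 (N-cadherin) and Cdh11 (OB-cadherin) join mesenchymal cells to each other and are linked to actin by catenins.

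Signals are MAS5 intensities on a linear scale in arbitrary units, and the 2 designs were scaled separately, so levels are compared neither between designs nor between probe sets. The background limit of an array was the 95th percentile of the signals of genes restricted to tissues such as liver, pancreas, retina and pituitary. It was 1176, 1312 and 951 on MOE430A and 4039.9, 2717 and 4204 on MOE430B in samples 1, 4 and 5. The MOE430B limit rests on only 13 probe sets, against 136 on MOE430A. A probe set above the limit on 3 of 3 arrays was called detected, and so was a gene with at least 1 such probe set. Of 11 fibroblast markers 9 were detected, against 26.1% of all measured genes, Thy1 and Lum being the exceptions. Of the other cell types looked for, endothelial markers had 0 of 10 genes detected, skeletal muscle markers 0 of 10, leukocyte markers 1 of 9 (Cd14, at 2151, 2576 and 4147 in samples 1, 4 and 5) and neuron and glia markers 1 of 9 (Sox10, at 1369.9, 1517 and 1186). Signals come from whole cultures, in which fewer cells of a type and less RNA per cell cannot be told apart.

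Promoter sequence is shown for 2 members, Snai1, since Snail proteins are known to bind E-boxes and its own promoter holds one, and Prrx1, the member with most detected probe sets, whose promoter alone held the homeodomain core. Both are the 250 bases upstream of the gene's start in RefSeq (GRCm38.p6), 5′ to 3′ on the gene's strand. The Snai1 stretch is chr2:167537945-167538194 on the plus strand, and the Prrx1 stretch is chr1:163313651-163313900 on the minus strand.
Snai1: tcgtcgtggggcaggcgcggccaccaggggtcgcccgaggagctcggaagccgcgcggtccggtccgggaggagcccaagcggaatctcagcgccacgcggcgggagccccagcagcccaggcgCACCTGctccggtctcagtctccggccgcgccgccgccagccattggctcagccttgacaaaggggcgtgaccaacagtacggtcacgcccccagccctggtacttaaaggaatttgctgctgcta
Prrx1: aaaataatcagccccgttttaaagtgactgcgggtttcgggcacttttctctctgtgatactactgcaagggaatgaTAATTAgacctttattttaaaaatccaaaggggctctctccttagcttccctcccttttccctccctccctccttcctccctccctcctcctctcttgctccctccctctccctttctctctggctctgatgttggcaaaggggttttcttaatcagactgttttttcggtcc
Capitals mark the 2 motifs searched, the Snail and Zeb box (CAGGTG, or CACCTG on the other strand) and the palindromic homeodomain core TAATTA. The box starts 126 bases upstream of the Snai1 start and the homeodomain core 173 bases upstream of the Prrx1 start. Of the 6 members with promoters in the RefSeq table, 1 held the box and 1 the homeodomain core, in 9 promoters. Among all 32851 promoters of the table, 17.2% held the box and 4.84% the homeodomain core, and a match is a description that shows no binding site.

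Of the 10 members, 6 were above background, the factor genes Snai1, Snai2, Twist2, Zeb1 and Prrx1 and the cadherin gene Cdh2. Of all measured genes 26.1% were detected. Twist1, Prrx2 and Cdh11 were above the limit on 2 of 3 arrays, and Zeb2 on 1 of 3 at most. By probe set, 6 of 15 were detected on MOE430A, where 24.2% of all probe sets were, and 2 of 10 on MOE430B, where 9.24% were. A gene with more probe sets is detected more often, 14.7% of genes with 1 probe set and 66.0% of those with 6 or more. Prrx1 has 6 probe sets, and Snai1, Twist1, Twist2 and Prrx2 have 1 each.

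Of the Snail factors, Snai1, the regulator needed for gastrulation, lay close above the limit on every array. Its probe set 1448742_at read 1330.0, 1813 and 1092 in samples 1, 4 and 5 (1411 ± 367, SD, n = 3), which is 1.13, 1.38 and 1.15 times the limit. At the 99th percentile limit Snai1 was not detected. Snai2, the family member of neural crest and migrating mesenchyme (Slug), was detected by its MOE430B probe set 1447643_x_at, with 242988, 173218 and 82912 in samples 1, 4 and 5. Names ending in _x_at mark probe sets whose probes can match several transcripts, and without such probe sets Snai2 was not detected. On MOE430A its probe set 1418673_at had signals of 3139.6, 1221 and 1199.5 in samples 1, 4 and 5, with sample 4 below the limit. Both probe sets read highest in sample 1, which was 2.62-fold over sample 5 on MOE430A and 2.93-fold over it on MOE430B. Sample 1 was at least 2.39-fold over sample 4 on MOE430A but 1.40-fold over it on MOE430B.

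The bHLH factors differed in their call. Twist2 (Dermo1), a factor of dermal and bone mesenchyme, read 3061, 2152 and 2577 in samples 1, 4 and 5 from 1448925_at (2597 ± 455, SD, n = 3). All 3 arrays lay well over the limit and the highest exceeded the lowest by 1.42-fold. Twist1, a factor of cranial mesenchyme and limb bud, read 1497, 727 and 1401 from 1418733_at, so samples 1 and 5 were above the limit and sample 4 below it. Sample 1 was at least 1.14-fold over sample 4, taking the limit as the level of sample 4. Their partners, the E-protein genes Tcf3, Tcf4 and Tcf12, were detected. Tcf3 read 1575, 2692 and 1797, Tcf4 read 5885, 7073 and 4152.5 and Tcf12 read 5655, 5680.3 and 9445 in samples 1, 4 and 5. Of the Id genes, whose products bind E-proteins and keep them from DNA, Id3 was detected, with 3788, 3083 and 1069, lowest in sample 5. Id2 read 1972, 2513 and 225, above the limit in samples 1 and 4 only, and Id1 read 806, 1167 and 791, below the limit on every array. In all, 4 of 13 genes of this list were detected (30.8%), near the 26.1% of all genes.

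The Zeb pair also differed. Zeb1, a repressor of Cdh1, was detected by 1 of 4 probe sets. That probe set, 1418926_at, read 7585, 5509.6 and 3398 in samples 1, 4 and 5 (5497 ± 2093, SD, n = 3), between 3.57 and 6.45 times the limit. Sample 1 was 2.23-fold over sample 5, with sample 4 between them. The MOE430B probe set 1443005_at read 4079, 2645 and 3618, above the limit in sample 1 only. The other Zeb1 probe sets, 1420243_at and 1446127_at, were below the limit on every array, between 229 and 355 and between 113 and 197. Zeb2 (Sip1), a partner of receptor-activated Smads, had 5 probe sets and none was detected. Its MOE430A probe set 1422748_at read 899, 768 and 1082, above the limit in sample 5 only, and 1458941_at read 2008, 3192 and 2333, above it in sample 4 only. The remaining 3, 1434298_at, 1454200_at and 1456389_at, were below the limit on every array, and between them read from 18.2 to 1667.

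Prrx1 had the most detected probe sets, 3 of 6. On MOE430A, 1425528_at read 11493, 24032 and 12584 in samples 1, 4 and 5, and 1432129_a_at read 2622, 8382 and 2733. Sample 4 was the high one in both, 1.91-fold and 3.07-fold over sample 5, while sample 1 lay at 0.913 and 0.959 of sample 5. Another, 1425526_a_at, also read highest in sample 4, with 683, 2304 and 797, and only sample 4 was above the limit. On MOE430B, 1439774_at read 31362.5, 25376 and 10064, so here sample 1 was highest and sample 5 lowest, with sample 1 3.12-fold over sample 5. The remaining Prrx1 probe sets were below the limit on every array, 1425527_at between 554 and 736 and 1458004_at between 41.5 and 1492. The single probe set of Prrx2, 1432331_a_at, read 4353, 6255 and 674. Samples 1 and 4 were well over the limit and sample 5 was below it, so that sample 4 was at least 6.58-fold and sample 1 at least 4.58-fold over sample 5.

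**Figure D1:**
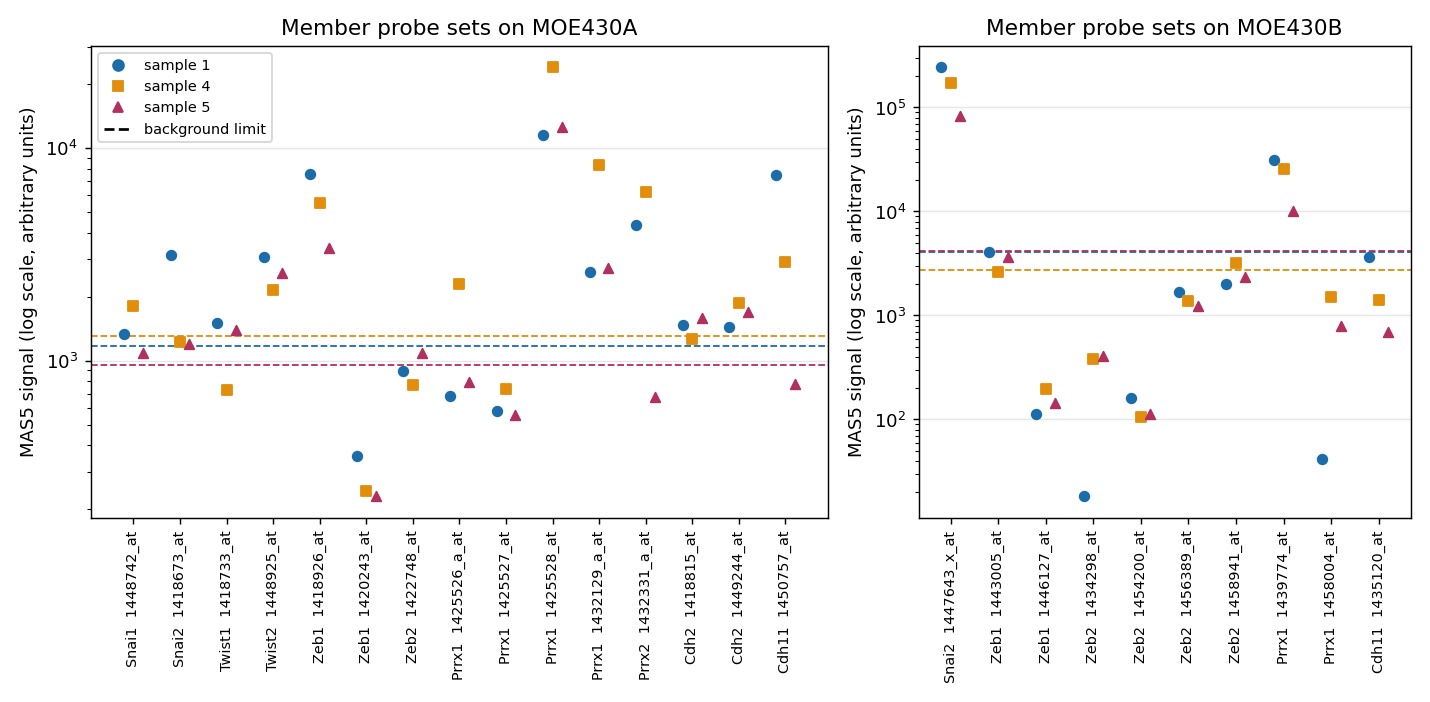
MAS5 signal (log axis, arbitrary units) of every member probe set in samples 1, 4 and 5, on MOE430A (left) and MOE430B (right), with the background limit of each array as a dashed line in the colour of its sample. Cdh11 and Prrx2 have sample 5 below the limit on MOE430A at 774 and 674. The detected MOE430A probe sets of Prrx1 have sample 4 on top.

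Of the cadherins, Cdh2 read close to the limit with a narrow range, and Cdh11 varied much. Cdh2 has a pair of probe sets on MOE430A. 1449244_at was detected, with 1443, 1872 and 1694 in samples 1, 4 and 5 (1669.8 ± 216, SD, n = 3), and 1418815_at read 1475, 1261 and 1585, with sample 4 just below the limit. Signals were 1.23 to 1.78 times the limit for 1449244_at and 0.96 to 1.67 times for 1418815_at. The highest and lowest samples of these probe sets differed by 1.30-fold and 1.26-fold, and sample 4 was the highest in one and the lowest in the other. A narrow range so close to background does not show that Cdh2 RNA was stable. At the 99th percentile limit Cdh2 was not detected. Cdh11 read 7456, 2919 and 774 in samples 1, 4 and 5 from 1450757_at on MOE430A. Samples 1 and 4 were above the limit and sample 5 below it, which puts sample 1 at least 7.84-fold and sample 4 at least 3.07-fold over sample 5. Sample 1 was also 2.55-fold over sample 4. The MOE430B probe set 1435120_at read 3640.02, 1407 and 697, below that design's limit on every array, so no fold is given for it.

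Among the other cadherin genes 1 of 18 was detected (5.56%), against 26.1% of all genes. This was Cdh13 (T-cadherin), which is anchored to the membrane by a lipid and lacks the catenin-binding tail. It read 5854, 8575 and 4913 in samples 1, 4 and 5, from 1 of its 4 probe sets. The other 17, among them E-cadherin (Cdh1, at 117, 205 and 188), VE-cadherin (Cdh5) and M-cadherin (Cdh15), were not detected. The brightest probe set of each was below the limit on every array. Of the catenins that carry cadherins, Ctnnb1, Ctnna1 and Ctnnd1 were detected. Ctnnb1 (beta-catenin) read 34425, 31539.8 and 33907 and Ctnna1 (alpha-catenin) 31693, 31059 and 30092.5, within 1.09-fold and 1.05-fold over the 3 samples. Of 4 Ctnna1 probe sets 2 were detected, and the one given ends in _x_at. Ctnnb1 and Ctnnd1 were each detected by 1 of 3 probe sets, that of Ctnnd1 ending in _s_at. Ctnnd1 (p120-catenin) read 8843, 22114 and 10589, highest in sample 4, and Vcl (vinculin, an actin linker) read 28464, 22940.4 and 10652, lowest in sample 5. In this list 4 of 10 genes were detected, against 26.1% of all genes, and plakoglobin (Jup) was not.

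Genes of the epithelial state, some of which Snail, Zeb and Twist factors are known to repress, were rarely above background. Of 30 measured genes 2 were detected (6.67%), against 26.1% of all genes. These were Crb3, a polarity protein gene, at 2182, 2104 and 1811, by 1 of 3 probe sets, and Epcam, at 31382, 139544 and 29693 from 1447899_x_at, the only one of its 2 probe sets detected and again one whose probes can match several transcripts. Without such probe sets 1 gene was detected, at the 99th percentile limit 1 and at the 90th percentile limit 4. Endothelial, skeletal muscle, leukocyte, and neuron and glia markers were also rarely detected, as counted above. Repression by the members was not tested. The mesenchymal effector genes, intermediate filament, matrix and protease genes among them, had 17 of 25 detected (68.0%), against 26.1% of all genes. This list holds all 11 fibroblast markers counted above. Of the 17, all on MOE430A, 13 were lower in sample 5 than in the mean of the other samples, against 54.1% of all detected probe sets there. The median log2 deviation of the 17 was -1.59. Fn1 (fibronectin) was among the 13, with 20466, 39567.5 and 17428, and Vim (vimentin) was not, with 36684, 99725 and 76354. The widest range among the 17, 17.6-fold, was that of Acta2 (smooth muscle actin), with 69179, 81188 and 4604. It came from an _s_at probe set, the only 1 of its 3 detected.

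The corepressors that Snail and Zeb proteins recruit had 10 of 15 genes detected (66.7%), against 26.1% of all genes. The histone deacetylase genes Hdac1 and Hdac2 read 9358, 8780.4 and 6331, and 9239, 12500.1 and 11836 in samples 1, 4 and 5. Ctbp1, a corepressor that Zeb proteins bind, read 25692, 46093 and 41842, and its relative Ctbp2 read 1451, 1336 and 2056. Kdm1a, the histone demethylase bound by the N-terminal domain of Snai1, read 3134, 2588 and 2868. Of the 10, only Loxl3 differed by more than 2-fold between samples, by 2.48-fold. Of all detected probe sets, 25.8% on MOE430A and 21.2% on MOE430B had a range of at least 2-fold.

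**Figure D2:**
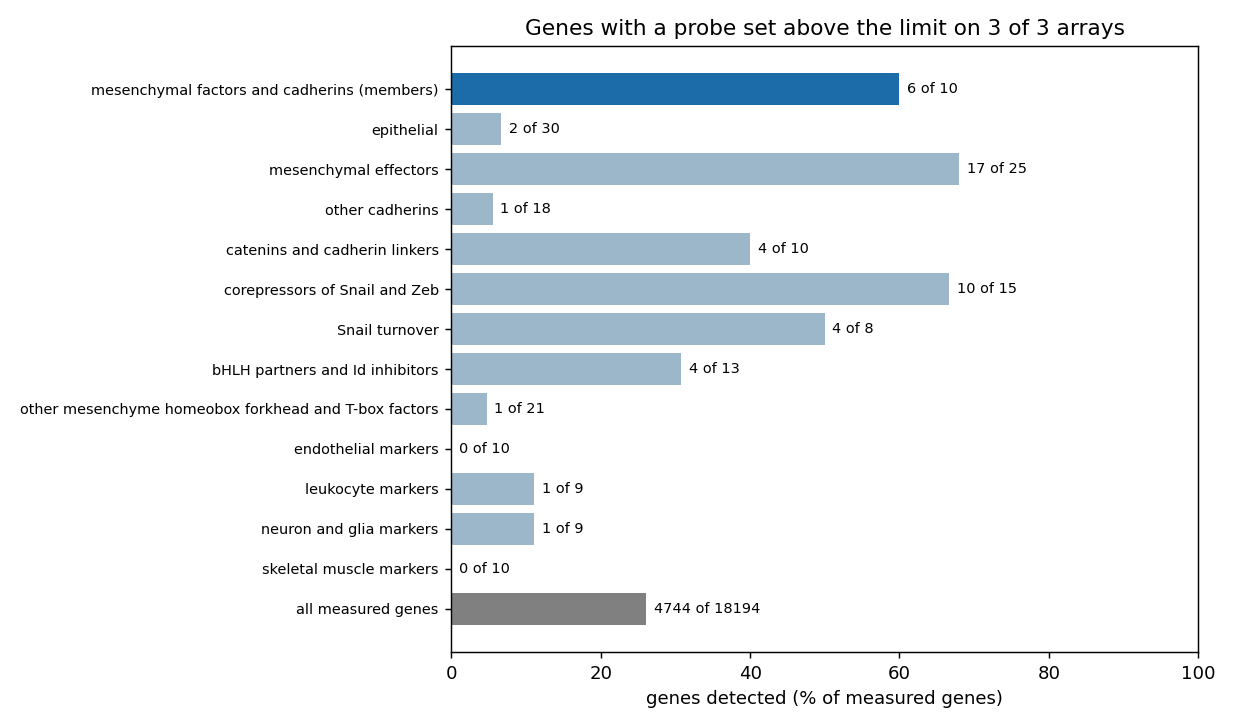
Share of measured genes with a probe set above the limit on 3 of 3 arrays (x axis, %), for the members (top, dark), the lists of related genes and markers, and all measured genes (bottom, grey), with the counts beside each bar. The members stand at 6 of 10, the epithelial list at 2 of 30 and all genes at 4744 of 18194.

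Ranges between samples were counted over detected probe sets, since a rule on the mean signal would keep a probe set through the 1 sample in which it is high. On MOE430A 3 of the 6 detected member probe sets had a highest sample at least 2-fold over the lowest, from Zeb1 and Prrx1, against 25.8% of all detected probe sets. Their median range was 1.88-fold, against 1.59-fold over all detected. Without sample 1 only 1 of 6 was past 2-fold, against 12.3% of all. On MOE430B the 2 detected probe sets were both past 2-fold, Snai2 by 2.93-fold and Prrx1 by 3.12-fold, against 21.2% of all detected. Without sample 5 neither was, against 6.995% of all. Prrx1 gives 2 of the 6 probe sets and 1 of the 2, so these counts hold fewer genes than probe sets. Cdh11 and Prrx2, low in sample 5 only, are not among them.

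**Figure D3:**
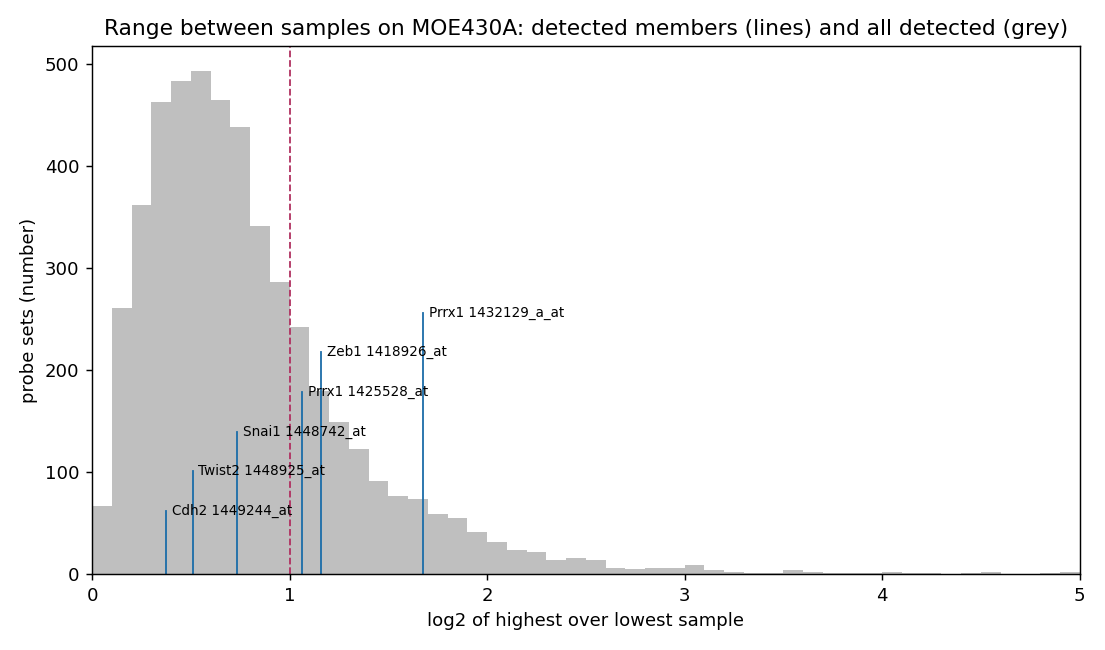
Number of probe sets on MOE430A (grey bars) by the log2 of highest over lowest of the 3 samples, for the 4931 detected probe sets, with values above 5 in the last bar. Blue lines, whose height carries no value, mark the 6 detected member probe sets and the dashed line a 2-fold range, and Zeb1 and both Prrx1 probe sets lie to the right of it.

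By direction, the 6 detected probe sets of MOE430A had a median log2 deviation from the mean of the other samples of -0.45 in sample 5, 0.42 in sample 4 and -0.19 in sample 1, against -0.07, 0.06 and 0.01 over all detected. In sample 5, 4 of 6 were lower, against 54.1% of all. Among the 4 was Snai1, which was as close to the limit in sample 5 (1.15 times it) as in sample 1 (1.13 times). Without sample 4 the median in sample 5 was -0.10, so its size rested largely on sample 4. Among the 9 detected fibroblast markers, all on MOE430A, 7 were lower in sample 5, and the median log2 deviation of the 9 was -1.55. All 9 belong to the mesenchymal effector list as well, so this repeats part of that list's result. The summed signal of the fibroblast list, given only to compare samples, was 410628 in sample 1, 415831 in sample 4 and 181541 in sample 5, of which Col1a2 gave 183221, 161044 and 43698.5. The part of that shift in the members' values was not tested.

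**Figure D4:**
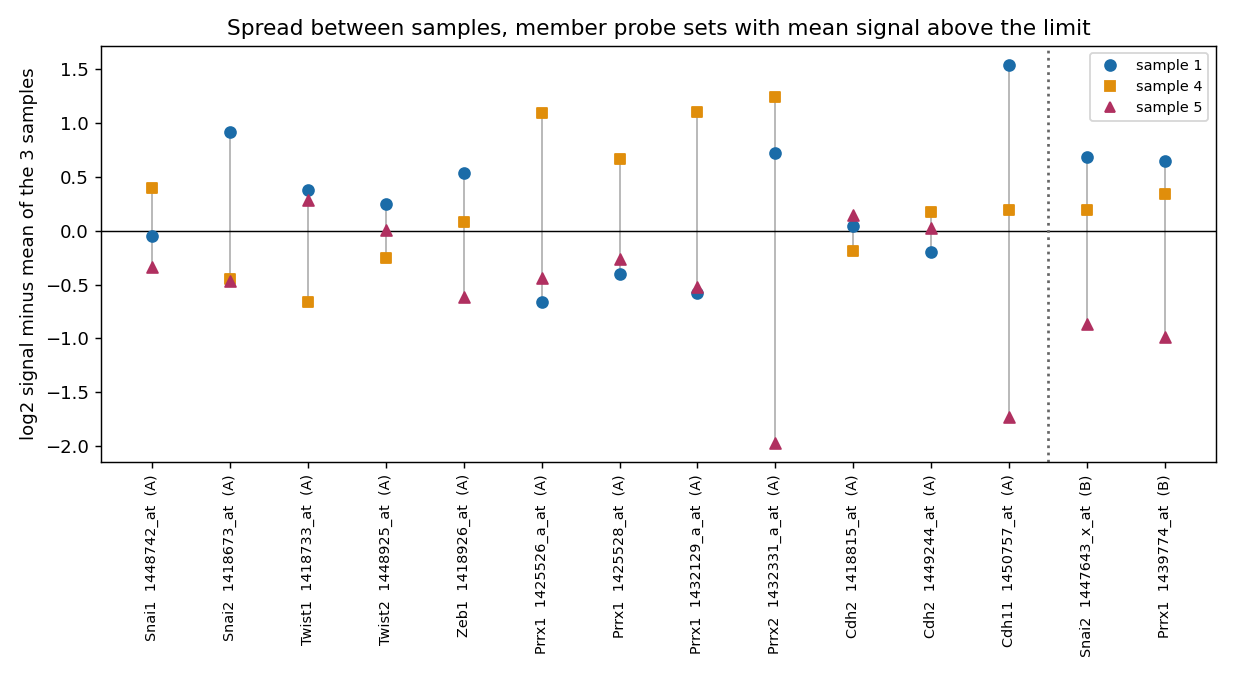
Log2 signal minus the mean of the 3 samples (y axis) for the 14 member probe sets with a mean signal over the mean limit, 12 on MOE430A left of the dotted line and 2 on MOE430B right of it, with grey lines joining the lowest and highest sample. Sample 5 lies lowest for Zeb1, Snai1, both probe sets of Snai2, the MOE430B probe set of Prrx1, and Cdh11 and Prrx2, where it is below the limit. Snai1 is close to the limit, at 1.15 times it in sample 5 and 1.13 in sample 1. On MOE430A Snai2 reads nearly alike in samples 4 and 5, at 1221 and 1199.5, with sample 4 below the limit. Sample 4 lies highest for the detected Prrx1 probe sets of MOE430A but not for that of MOE430B. Prrx1 1425526_a_at is over the limit in sample 4 only and was kept through that sample, so its order carries no weight.

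How closely such differences repeat when the same RNA is measured again was read from the 100 probe sets, controls aside, that both designs carry. This does not measure how far separate cultures or RNA preparations of the cells differ. For the 71 above the limit on all 6 arrays, the log2 ratio between a pair of samples differed between the designs with an SD of 0.41 for samples 1 and 4, 0.38 for samples 1 and 5 and 0.32 for samples 4 and 5. In 95% of them the difference was at most 0.97, 0.99 and 0.57. With sample 5 taken at its limit, the log2 difference of Cdh11 between samples 1 and 5 was at least 2.97. That of Prrx2 between samples 4 and 5 was at least 2.72. Both exceeded the 95% difference of their pair of samples, which was measured only on probe sets above the limit. Those of Snai2 between samples 1 and 5 exceeded it on both designs (1.39 on MOE430A and 1.55 on MOE430B). That of Zeb1 between samples 1 and 5 (1.16) exceeded it by little. The differences between highest and lowest sample of Cdh2 and Twist2 lay within it. Each pair given here is the highest and lowest sample of its probe set, whereas the 95% difference is for fixed pairs. Exceeding it therefore does not show a difference between the cells of the samples.

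The probe sets of the 2 designs, which are different ones, did not give Prrx1 or Snai2 the same pattern. For Snai2 the log2 difference between samples 4 and 5 was 0.03 on MOE430A, where sample 4 was below the limit, and 1.06 on MOE430B. For Prrx1 the probe sets of the 2 designs differed on sample 1. Sample 1 was below sample 4 by 1.06 and 1.68 (log2) in the detected probe sets of MOE430A and above it by 0.31 in that of MOE430B. This is a disagreement of 1.37 and 1.98, larger than for 95% of the common probe sets. Those are the same probe sets on both designs, so they do not measure differences between separate probe sets of a gene. Sample 4 lay above sample 5 on both designs, by 0.93 and 1.62 on MOE430A and 1.33 on MOE430B. The common probe sets themselves put sample 1 lower on MOE430B than on MOE430A, by a median of 0.31 against sample 4 and 0.40 against sample 5. This is the opposite direction to Prrx1, for which sample 1 was relatively higher on MOE430B. Ratios of the 3′ to the 5′ control probe set were highest in sample 1, at 24.7 for Gapdh on MOE430A, against 15.03 in sample 4 and 10.6 in sample 5. For beta-actin on MOE430A they were 17.5, 9.57 and 8.68 in samples 1, 4 and 5, and on MOE430B both ratios were also highest in sample 1. Sample 5's MOE430A array was run on another fluidics station than the other two of that design, and on MOE430B all 3 shared one. Whether these differences between samples played a part in the values of Prrx1, Prrx2 or Cdh11 was not tested.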

How the data were processed

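RNA of 3 samples of 10T1/2 cells was measured on 6 arrays. For each array the authors deposited an intensity (the MAS5 signal) of every probe set, made with MAS5 per the submitters' processing notes, with no version or settings given in the sources used here. Values are linear, with a mean of about 1499.8 on every array after trimming 2% at each end, and no detection calls were used. Run settings, per the file headers, were read to check array design and sample against the labels and to look for shared hybridisation days, chip lots and fluidics stations. The 2 designs were kept apart, and 0 other columns of per-sample values were found. Symbols come from the platform annotation, updated by gene ID through RefSeq (GRCm38.p6), which held 20364 of 20393 probe sets naming 1 gene on MOE430A and 14499 of 14674 on MOE430B. The intensity tables name no build, so no array coordinates are given.

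The background list had 121 genes. Signals were set to at least 1 before log2, and ranges and deviations were computed with Python 3.11.15, pandas 2.3.3 and numpy 2.4.6, tested on simulated data. With 1 group no test was made, and the number of arrays limits the precision. All members are named with every probe set. Of the lists of related genes, 18 by name and every detected cadherin, catenin and epithelial gene are given. Of their probe sets the brightest detected one is printed, or the brightest where none was detected. Brightness was ranked over both designs, although they were scaled separately. Besides Epcam, those printed for Tcf4, Ctnna1 and Lats2 end in _x_at. Those for Ctnnd1, Hdac2, Kdm1a and Acta2 end in _s_at, an ending left out together with _x_at in the closing section. Signals of other probe sets of these genes are not printed. Jup, Loxl3, Acta2, Col1a2, Cdh5, Cdh15 and the markers named were chosen after their values were seen. Members and lists were chosen with earlier results of these data known. Alternatives are given in the closing section.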

Additional observations from a re-analysis of the deposited data

How the results depend on the processing

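No paired analysis was possible because the samples form 1 group and the 2 designs were not compared as groups. With detection on 2 of 3 arrays, 11 member probe sets of MOE430A were called, where 3 of 3 arrays gave 6, against 30.6% and 24.2% of all. Without probe sets ending in _s_at or _x_at, MOE430B had 1 detected member probe set and 1 past 2-fold, and 1 epithelial and 0 other cadherin genes were detected. The limit was recomputed from the remaining background probe sets. The Cdh13 probe set, 1434115_at, was itself kept and was lost only through the changed limit. The 90th percentile limit gave 4 epithelial genes, and the 99th gave 1 epithelial and 0 other cadherin genes. With no filter on low values, 8 member probe sets of MOE430A and 5 of MOE430B were past 2-fold, against 50.1% and 57.9% of all. Keeping probe sets by a mean signal over the mean limit, with low signals raised to the limit, gave 7 on MOE430A, against 27.9%. That rule keeps probe sets through 1 high sample, such as Prrx1 1425526_a_at, so the higher count rests partly on the selection. With 1 sample left out, 1 to 3 detected member probe sets were past 2-fold on MOE430A (1 without sample 1) and 0 to 2 on MOE430B (0 without sample 5), against 7.85% to 18.1% and 6.995% to 13.5% of all, 6 to 9 were detected on MOE430A and 2 on MOE430B, and 6 to 8 members were detected, with Prrx2 and Cdh11 added without sample 5 and Twist1 without sample 4. The median deviation of sample 5 was then between -0.71 and -0.10. That of sample 1 changed sign, to 0.061 with no filter and 0.088 with the rule on the mean signal. It lay between -0.41 and 0.10 with 1 sample left out (0.10 without sample 4). The cause was not tested. Over all settings, 4 to 9 of the 10 members were detected, 4 at the 99th percentile limit, 7 at the 90th and 9 on 2 of 3 arrays, against 17.1%, 36.1% and 33.8% of all genes. A limit from odorant, vomeronasal, trace amine and taste receptor genes (69 probe sets on MOE430A and 15 on MOE430B), chosen after seeing the data, detected the same 6, against 33.4% of all genes. Shifts of single log2 differences were judged by the SD between designs (0.41, 0.38 and 0.32), a smaller mark than the 95% difference used above. Quantile normalisation and a pseudocount of 64 moved none of 42 log2 differences of single member probe sets by that SD. Raising low signals to the limit moved 6 of the 42 by more than that SD, for Twist1, Prrx1 1425526_a_at and Prrx2. Among them were Prrx2 between samples 4 and 5 (2.72, against 3.21) and Twist1 between samples 1 and 4 (0.19, against 1.04). Another was Prrx1 1425526_a_at between samples 1 and 5 (0.31, against -0.22, with both samples below the limit).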

Other observations

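Beyond the members, other transcription factor genes of mesenchyme were mostly below background. Of 21 homeobox, forkhead and T-box factor genes, 1 was detected (4.76%), against 26.1% of all genes. This was Foxp1, a forkhead repressor, at 9539.6 in sample 1, 5725 in sample 4 and 1810 in sample 5. Foxc1, a factor of somite and cranial mesenchyme, read 1919, 1813 and 638, above the limit in samples 1 and 4 only. The genes named here were picked after their values were seen. Of 8 genes that act on the stability of Snail proteins 4 were detected, against 26.1% of all genes. The kinase gene Gsk3b, whose product marks Snai1 for breakdown, read 20788, 25031 and 22714, within 1.20-fold over the samples. The kinase gene Lats2 read 4805, 2267 and 4776, lowest in sample 4, from an _x_at probe set, the only 1 of its 6 detected.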
